A study of Mus musculus with 10 samples.

Results

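A set of 10 genes of the muscle sarcomere, of the intermediate filaments and of the smooth muscle actin anchors was followed in cultured aortic smooth muscle cells with and without extra Adamts7. They are Myom1, Tnnt2, Ttn, Des, Synm, Vim, Ldb3, Synpo2, Lmod1 and Smtn, 10 of the 36144 genes in the deposited expression table. They were picked by symbol, partly because Myom1 and Tnnt2 were already known to be higher in the overexpression cultures, so the differences between genotypes below are descriptions of these 10 genes, and no result is read from a test of them. The cells were primary vascular smooth muscle cells, isolated from aortas stripped of adventitia (male mice, 8 weeks old), grown in serum and used at passages 2 to 7. The 2 genotypes were Myh11-Cre-ERT2 mice with VSMC-specific Adamts7 overexpression (3 RNA libraries and 2 ATAC-seq libraries) and wild-type mice (3 RNA libraries and 2 ATAC-seq libraries). Within each assay every library came from its own mouse, and all were labelled as 1 batch. Adamts7 encodes a secreted metalloprotease of the extracellular matrix, and the series sets it in the context of smooth muscle foam cells in atherosclerosis. No source used here gives the strain, tamoxifen treatment, the passage of each library or whether wild-type mice carried the Cre driver, so driver, inducer and overexpression cannot be told apart. The Myh11 promoter is active in smooth muscle cells.

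Adamts7 itself was at 75.8 to 98.7 TPM in the overexpression libraries, against 6.08 to 8.2 TPM in the wild-type libraries. Some titles were at odds with this grouping: those of the 3 overexpression RNA libraries start with WT, while the genotype label, which was used here, and the Adamts7 level place them with overexpression. Among defining smooth muscle markers, Acta2 was at 1393 to 2335 TPM in overexpression libraries and 1209 to 1291 TPM in wild-type libraries, and Tagln at 947 to 1236 and 828 to 855 TPM. Several endothelial markers were abundant in all 6 libraries. Emcn was at 840 to 1443 TPM in overexpression and 1825 to 2164 TPM in wild-type libraries. Cdh5 was at 459 to 745 and 864 to 948 TPM. Others were low, such as Kdr at 3.01 to 6.56 and 7.84 to 9.55 TPM and Vwf at 12.6 to 22.6 and 13.1 to 18.6 TPM. Kdr and Vwf were named after their values were seen. Markers of a second cell type were thus present throughout. In bulk RNA, fewer cells of a type and less RNA per cell cannot be told apart. Overexpression mouse 3 lay between the other libraries on the first principal component, with a score of -0.67, against 18.6 and 39.4 for overexpression mice 1 and 2 and -20.3 to -16.8 for wild type.

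A sarcomere is the repeating contractile unit of striated muscle, in which myosin thick filaments are tied together at the M-band by myomesin, actin thin filaments carry troponin, and titin spans from the Z-disc to the M-band. Smooth muscle has no sarcomeres. Its actin filaments are anchored at dense bodies, which share several proteins with the Z-disc, and its intermediate filaments are built of vimentin and desmin. Smooth muscle cells that are grown in culture commonly lose contractile proteins and desmin and keep vimentin. Many muscle genes are switched on by serum response factor, which binds the CArG box, by MEF2 factors, which bind an AT-rich box, and by TEAD factors, which bind the MCAT element.

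The start regions of 5 of the 10 genes are shown because each holds one of these muscle elements and belongs to a fitted gene whose mean was higher in the overexpression cultures. Each is the 250 bases before an annotated transcript start, written 5′ to 3′ on the strand of the gene, from RefSeq on GRCm38.p6, with the matched element in capitals. The Myom1 region is chr17:71019307-71019556 on the plus strand, the Ldb3 region chr14:34588682-34588931 on the minus strand, the Synpo2 region chr3:123236150-123236399 on the minus strand, the Tnnt2 region chr1:135836084-135836333 on the plus strand and the Lmod1 region chr1:135324563-135324812 on the plus strand.
Myom1: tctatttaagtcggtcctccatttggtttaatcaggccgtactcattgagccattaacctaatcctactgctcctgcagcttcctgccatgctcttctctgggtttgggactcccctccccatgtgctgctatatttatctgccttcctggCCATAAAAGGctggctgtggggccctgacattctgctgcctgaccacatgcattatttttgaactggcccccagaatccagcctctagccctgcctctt
Ldb3: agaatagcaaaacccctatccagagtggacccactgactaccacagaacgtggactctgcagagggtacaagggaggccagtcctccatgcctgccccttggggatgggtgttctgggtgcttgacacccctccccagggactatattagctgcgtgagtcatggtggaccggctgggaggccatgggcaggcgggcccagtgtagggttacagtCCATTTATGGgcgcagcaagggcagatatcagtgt
Synpo2: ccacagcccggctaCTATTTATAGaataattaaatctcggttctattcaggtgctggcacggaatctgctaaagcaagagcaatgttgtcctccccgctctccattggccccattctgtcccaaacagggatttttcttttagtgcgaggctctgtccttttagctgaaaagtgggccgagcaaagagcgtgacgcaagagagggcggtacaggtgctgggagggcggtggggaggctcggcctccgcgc
Tnnt2: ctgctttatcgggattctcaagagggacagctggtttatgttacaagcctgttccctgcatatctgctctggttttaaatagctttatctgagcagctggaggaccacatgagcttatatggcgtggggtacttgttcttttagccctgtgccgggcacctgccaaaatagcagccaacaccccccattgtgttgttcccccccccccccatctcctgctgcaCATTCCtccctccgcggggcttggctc
Lmod1: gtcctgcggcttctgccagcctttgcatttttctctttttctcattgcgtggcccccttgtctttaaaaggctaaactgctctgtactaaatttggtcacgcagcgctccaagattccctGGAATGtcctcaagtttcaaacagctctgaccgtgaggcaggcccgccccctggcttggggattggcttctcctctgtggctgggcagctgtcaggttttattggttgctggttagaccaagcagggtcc
The Myom1 and Ldb3 regions hold a CArG box, CCATAAAAGG from 99 to 90 bases before the start in Myom1 and CCATTTATGG from 35 to 26 bases before it in Ldb3. Synpo2 holds a MEF2 box, CTATTTATAG, and Tnnt2 and Lmod1 hold the MCAT core CATTCC, read in Lmod1 as its reverse complement GGAATG. Tnnt2 and Ldb3 each have another annotated start region, not shown. That of Tnnt2 held none of the 3 elements, and in that of Ldb3 the same CArG box lay from 109 to 100 bases before the start. Both strands were searched in all 10 genes, and no match overlapped another. A CArG box was found in 2 of the 10 genes, against 1.62% of 27025 genes and 1.47% of 32851 start regions of the same length. The MEF2 box was found in Synpo2 and Ttn, 2 of the 10 genes, against 3.42% of all genes and 2.92% of all regions. The MCAT core was found in Tnnt2, Lmod1 and Smtn, 3 of the 10 genes, against 14.4% of all genes and 12.6% of all regions. The regions of Des, Synm and Vim held none of the 3 elements. Of the starts shown, those of Myom1, Ldb3, Tnnt2 and Synpo2 lie inside the annotated gene, downstream of its outermost start, for Tnnt2 and Synpo2 by a few bases. Which start the cells used cannot be read from gene-level values, and a match of letters is a description, not a binding site.

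Vimentin RNA outnumbered every other of the 10 transcripts in each library, and desmin RNA was low. Vim, which encodes the main intermediate filament protein of mesenchymal cells, was at 3324, 3525 and 3355 TPM in overexpression mice 1, 2 and 3, against 3091, 3083 and 3013 TPM in wild-type mice 1, 2 and 3. All 3 overexpression libraries lay above all 3 wild-type libraries, by a small margin. The means were 3401 ± 108 and 3062 ± 43 TPM (SD, n = 3 each), a ratio of 1.11 and a log2 difference of 0.15 ± 0.061 (SE). By mean level Vim ranked 20 among all genes in overexpression cultures and 25 in wild type. Vim (ENSMUSG00000026728.9) lies on chromosome 2 from 13574311 to 13582826.

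Des, the desmin gene that marks mature muscle, was at 3.56, 1.96 and 1.71 TPM in overexpression libraries, against 3.00, 2.46 and 1.58 TPM in wild-type libraries. The groups overlapped, with means of 2.41 ± 1.00 and 2.35 ± 0.71 TPM (SD, n = 3 each). Its log2 difference was 0.010 ± 0.26 (SE), and its sign differed in 3 of 14 alternative settings (range -0.22 to 0.43). Per 1000 units of Vim TPM there were 0.51 to 1.07 units of Des in overexpression libraries and 0.53 to 0.97 in wild-type libraries. These ratios overlapped too. Des (ENSMUSG00000026208.9) lies on chromosome 1 from 75360292 to 75368579.

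Synm encodes synemin, which assembles with desmin or vimentin and links the filaments to membrane complexes. It was at 11.8, 6.52 and 12.6 TPM in overexpression libraries, against 11.4, 12 and 12.8 TPM in wild-type libraries. Overexpression mouse 2 alone was low, and the other 2 overexpression libraries lay within the wild-type range. The log2 difference was -0.25 ± 0.22 (SE), and 0.018 without overexpression mouse 2. That library also had the lowest summed endothelial marker level, 2669 TPM, against 3665 and 4453 TPM in the other overexpression libraries, and the part of this in the Synm value was not tested. Synm (ENSMUSG00000030554.16) lies on chromosome 7 from 67730161 to 67759742.

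Myom1 was the most even of the genes that separated the genotypes by a wide margin. It encodes myomesin, which cross-links thick filaments at the M-band of striated muscle. Its level was 18.9, 17.4 and 18.8 TPM in overexpression mice 1, 2 and 3, against 10.3, 11.7 and 11.2 TPM in wild-type mice 1, 2 and 3. The lowest overexpression library stood well above the highest wild-type library. The means were 18.4 ± 0.86 and 11.1 ± 0.72 TPM (SD, n = 3 each), a ratio of 1.66 and a log2 difference of 0.69 ± 0.087 (SE). The coefficient of variation within overexpression libraries was 4.68% for Myom1, against 29.7% for Lmod1, 26.6% for Ldb3 and 37.1% for Tnnt2. Overexpression mouse 3, which lay nearest wild type for Tnnt2, Ldb3 and Lmod1, was not the lowest of its group for Myom1. Myom1 (ENSMUSG00000024049.15) lies on chromosome 17 from 71003332 to 71126856.

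Other genes of the titin and M-band system stood lower. Ttn, which encodes titin, was at 0.060, 0.32 and 0.0032 TPM in overexpression libraries, against 0.0081, 0.042 and 0.011 TPM in wild-type libraries, below the 1 TPM mean that the fit required. All but overexpression mouse 2 were under 0.1 TPM, and the groups overlapped. The M-band genes Myom2 and Myom3, relatives of Myom1 that are named here after their values were seen, did not reach 1 TPM in any library. Obsl1, a cytoskeletal adaptor gene, by contrast, was at 11.1, 15.3 and 7.13 TPM in overexpression libraries, against 6.37, 6.61 and 4.34 TPM in wild-type libraries. Its groups did not overlap, and limma gave a log2 difference of 0.80 ± 0.26 (SE) with an adjusted p of 0.179. Ttn (ENSMUSG00000051747.14) lies on chromosome 2 from 76703980 to 76982557.

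Tnnt2 had the widest log2 difference of the 9 genes that were fitted. It encodes the troponin T of cardiac muscle, which ties the troponin complex to tropomyosin on the thin filament. Overexpression mice 1, 2 and 3 had 4.24, 6.44 and 3.09 TPM, against 1.02, 1.57 and 1.75 TPM in wild-type mice 1, 2 and 3. The groups did not overlap, and overexpression mouse 2 was highest. The means were 4.59 ± 1.70 and 1.45 ± 0.38 TPM (SD, n = 3 each), a ratio of 3.18. The log2 difference of 1.16 ± 0.25 (SE) was 0.93 without overexpression mouse 2. At this low level it depended on the pseudocount, and was 1.57 with a pseudocount of 0.1. Tnnt2 (ENSMUSG00000026414.13) lies on chromosome 1 from 135836315 to 135852268.

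None of the 3 other troponin genes that were fitted lay wholly higher in overexpression libraries. Tnnt1, which encodes the troponin T of slow skeletal muscle, was at 1.12, 1.19 and 1.28 TPM in overexpression libraries, against 2.71, 1.62 and 2.32 TPM in wild-type libraries. Its overexpression libraries lay wholly below wild type, the opposite side to Tnnt2, with a log2 difference of -0.54 ± 0.18 (SE; limma adjusted p = 0.194). Tnnc1, the troponin C gene of heart and slow muscle, had 4.77 to 8.06 TPM in overexpression and 5.40 to 8.71 TPM in wild-type libraries, and Tnni3, cardiac troponin I, 1.70 to 3.77 and 1.92 to 2.34 TPM. Both overlapped between genotypes. Tnni1, Tnni2, Tnnc2 and Tnnt3 averaged under 1 TPM, so they were not fitted, and their groups overlapped. Mean levels in overexpression and wild-type libraries were 1.13 and 0.21 TPM for Tnni2 and 0.99 and 0.31 TPM for Tnnt3. For Tnni1 they were 1.03 and 0.92 TPM, and for Tnnc2 0.22 and 0.31 TPM. These genes and the 3 fitted ones were named after their values were seen, as partners of Tnnt2.

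**Figure D1:**
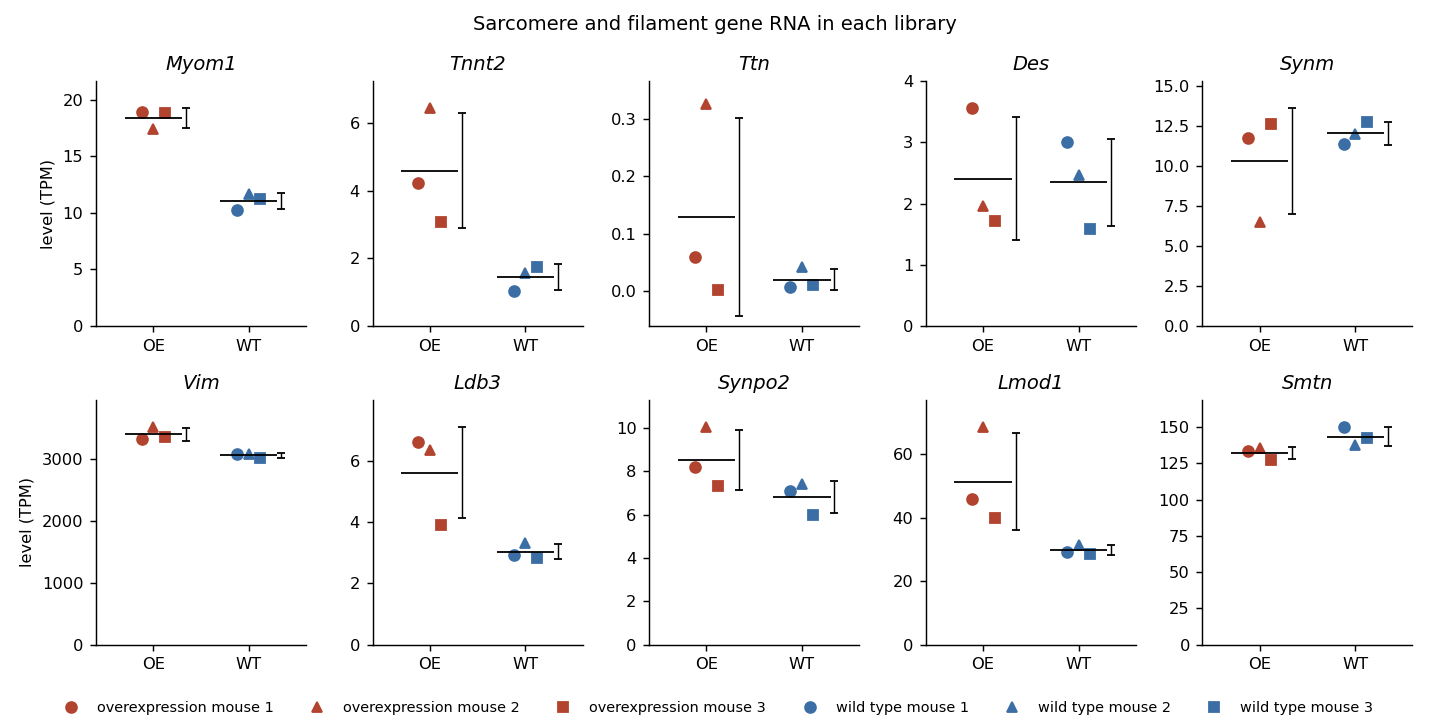
RNA level (TPM) of each of the 10 genes in overexpression (OE) and wild-type (WT) libraries; symbols are mice, horizontal lines are means and bars are SD (n = 3 each). Myom1, Tnnt2, Ldb3, Lmod1 and Vim lay wholly higher in overexpression, Smtn lay wholly lower, and the other 4 overlapped.

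Among genes of the Z-disc and the dense body, Ldb3 differed between the genotypes more than Synpo2. Ldb3 encodes a PDZ and LIM domain protein that binds alpha-actinin at the Z-disc. It was at 6.60, 6.34 and 3.89 TPM in overexpression libraries, against 2.93, 3.30 and 2.83 TPM in wild-type libraries. The groups did not overlap, although overexpression mouse 3 was close to wild type. The means were 5.61 ± 1.49 and 3.02 ± 0.25 TPM (SD, n = 3 each), a ratio of 1.86 and a log2 difference of 0.69 ± 0.19 (SE). Ldb3 (ENSMUSG00000021798.14) lies on chromosome 14 from 34526699 to 34590314 and has 11 RefSeq transcripts, which the gene-level value sums.

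Synpo2 encodes synaptopodin 2, an actin-bundling protein of the Z-disc and of smooth muscle. Its values were 8.19, 10.1 and 7.33 TPM in overexpression libraries, against 7.10, 7.41 and 6.0 TPM in wild-type libraries. The groups overlapped, because overexpression mouse 3 lay under wild-type mouse 2. The log2 difference was 0.28 ± 0.14 (SE), and 0.16 without overexpression mouse 2. In each overexpression library Ldb3 stood at 0.53 to 0.81 of the Synpo2 TPM, against 0.41 to 0.47 in wild-type libraries. Synpo2 (ENSMUSG00000050315.14) lies on chromosome 3 from 123076519 to 123236168.

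The 2 smooth muscle actin-binding genes stood on opposite sides. Lmod1 encodes leiomodin 1, the actin filament nucleator of smooth muscle, and was at 45.8, 68.8 and 39.8 TPM in overexpression libraries, against 29.1, 31.6 and 28.7 TPM in wild-type libraries. Every overexpression library lay above every wild-type library, and overexpression mouse 2 was highest. The means were 51.5 ± 15.3 and 29.8 ± 1.55 TPM (SD, n = 3 each), a ratio of 1.73 and a log2 difference of 0.73 ± 0.18 (SE). Without overexpression mouse 2 that difference was 0.51. Lmod1 (ENSMUSG00000048096.7) lies on chromosome 1 from 135324813 to 135368065.

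Smtn encodes smoothelin, an actin-associated protein used as a marker of contractile smooth muscle. Its level was 134, 135 and 127 TPM in overexpression libraries, against 150.2, 137 and 143 TPM in wild-type libraries. All 3 overexpression libraries lay below all 3 wild-type libraries, by a gap smaller than the spread within either genotype. The log2 difference was -0.12 ± 0.060 (SE). Within a library, Lmod1 stood at 0.31 to 0.51 of the Smtn TPM in overexpression cultures and at 0.19 to 0.23 in wild type, without overlap. Smtn (ENSMUSG00000020439.17) lies on chromosome 11 from 3517522 to 3539292.

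Ordered by mean TPM in overexpression cultures, the genes were Vim, Smtn, Lmod1, Myom1, Synm, Synpo2, Ldb3, Tnnt2, Des and Ttn. In wild type the order was Vim, Smtn, Lmod1, Synm, Myom1, Synpo2, Ldb3, Des, Tnnt2 and Ttn, so that Myom1 and Synm, and Tnnt2 and Des, stood in reverse order. Neighbours whose ranges over the libraries overlapped were Synm with Synpo2, Ldb3 with Tnnt2 and Tnnt2 with Des in overexpression cultures. In wild type they were Synm with Myom1, Ldb3 with Des and Des with Tnnt2. Library by library, Tnnt2 still stood above Des in every overexpression library and Synm above Myom1 in every wild-type library. The order of the other overlapping pairs differed between libraries and is not settled. TPM is corrected for length, so these levels can be compared between genes.

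Of the 9 fitted genes, those averaging 1 TPM or more, 7 had a positive log2 difference and 2 a negative one, or 6 and 3 after quantile normalisation, with a median of 0.28 against -0.0090 over all genes fitted. The groups separated fully for 6 of them: 5 had overexpression libraries wholly above wild type and 1 wholly below. Across all 13131 genes fitted the groups separated for 27.2%, with overexpression wholly above for 14.3% and wholly below for 12.9%. None of the 9 passed limma's threshold of an adjusted p of 0.05, where 2 of all genes, 0.0152%, did. At an unadjusted p under 0.05 by limma there were 5 of the 9, all higher, where 19.5% of all genes reached it, 10.6% higher and 8.94% lower. Without overexpression mouse 3, limma called 4 of the 9 (Ldb3, Lmod1, and Myom1 and Tnnt2, which helped to choose the list) and 828 of 13141 genes in all, or 6.3% (3.99% higher and 2.31% lower). The same 4 were called with quality weights on the libraries, where 2728 genes, or 20.8%, passed (11.4% higher and 9.42% lower). Since Myom1 and Tnnt2 helped to choose the list on this same comparison, nothing is read from these counts.

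**Figure D2:**
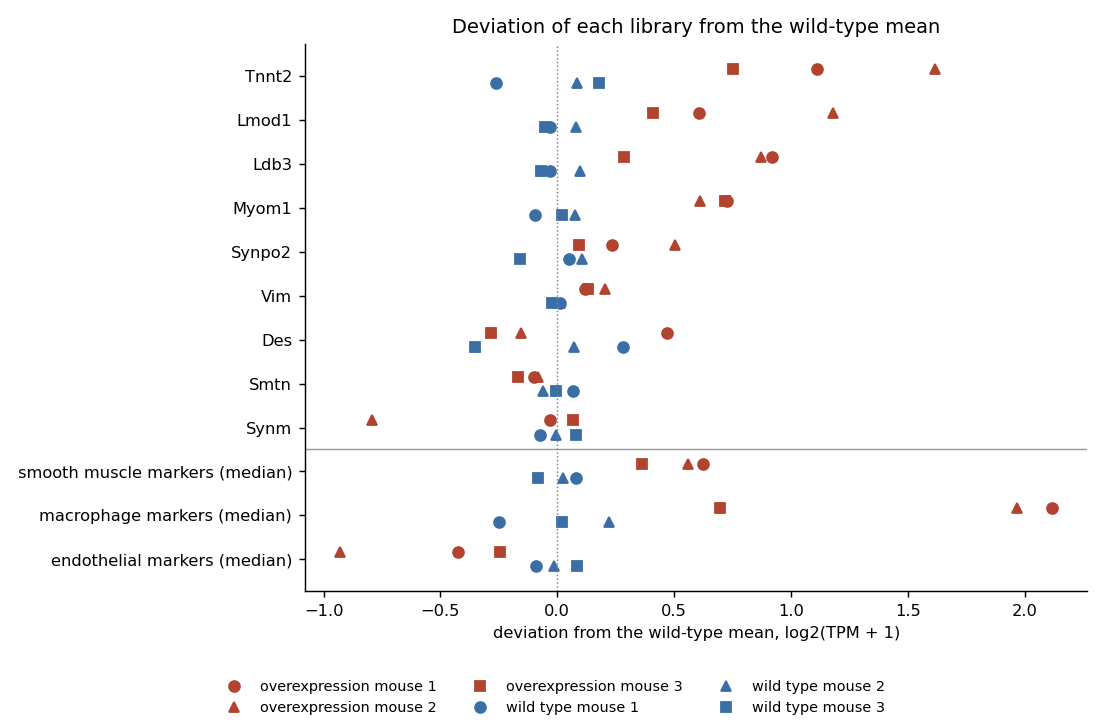
Deviation of each library from the wild-type mean on the log2(TPM + 1) scale for the 9 fitted genes, with the medians of 3 marker lists below the line. Overexpression mouse 3 lies nearest wild type for Tnnt2, Lmod1 and Ldb3 and for all 3 list medians, while the 3 overexpression values of Myom1 lie close together.

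Markers of other cell types also differed between the genotypes. Of 17 macrophage markers fitted, 16 lay wholly higher in the overexpression libraries and 1 wholly lower, and the list summed to 1152 to 3448 TPM there, against 524 to 738 TPM in wild type. Lyz2 was at 588 to 1979 TPM in overexpression and 190 to 282 TPM in wild-type libraries, and C1qa at 122 to 383 and 53.4 to 91.0 TPM. Of 15 endothelial markers, 10 lay wholly lower, and the list summed to 2669 to 4453 TPM in overexpression and 5255 to 5773 TPM in wild-type libraries. Of 11 smooth muscle markers, 9 lay wholly higher, and the list summed to 4081 to 6188 TPM, against 3471 to 3580 TPM. Over all genes fitted, 14.3% lay wholly higher in overexpression libraries and 12.9% wholly lower. Fibroblast markers, of which 8 were fitted, summed to 669 to 1026 TPM in overexpression and 1014 to 1190 TPM in wild-type libraries. Most of this was Cd34, at 543 to 928 and 911 to 1084 TPM, with Ly6a next, at 45.4 to 64.1 and 35.6 to 45.1 TPM. Pdgfra, Pi16 and Dpt, named after their values were seen, were low. Pdgfra was at 2.89 to 4.78 and 2.66 to 3.99 TPM and Pi16 at 2.22 to 5.22 and 3.13 to 5.08 TPM. Dpt averaged 0.13 and 0.11 TPM. Of the 8, 4 had a positive and 4 a negative log2 difference, with a median of 0.0044. For 1 of them overexpression lay wholly higher and for 2 wholly lower. The part of these lists in the values of the 10 genes was not tested.

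Striated muscle cells express Myom1, Tnnt2 and Ldb3, so their other markers are given too. Of the 20 listed, 3 averaged 1 TPM or more, and the list summed to 6.57 to 10.9 TPM in overexpression and 5.49 to 8.98 TPM in wild-type libraries. All 3 had a positive log2 difference and 1 lay wholly higher, where 14.3% of all genes fitted did. Casq1 and Nppb were the most abundant, at 1.92 to 2.60 and 0.72 to 4.41 TPM in overexpression libraries and at 1.75 to 3.26 and 0.78 to 2.21 TPM in wild type, and both overlapped. The third, Srl, which encodes sarcalumenin of the sarcoplasmic reticulum and is named after its values were seen, was at 1.64, 3.45 and 1.96 TPM in overexpression libraries, against 0.96, 1.04 and 1.18 TPM in wild-type libraries. Its groups did not overlap (log2 difference 0.66 ± 0.23 SE, limma adjusted p = 0.194). Myf5, Myf6 and Pvalb were listed at 0 in all 6 libraries. The other 14 include the defining markers Myod1, Myog, Ckm, Ryr1, Ryr2, Nppa and Nkx2-5, each above 0 in at least 1 library. None of the 14 averaged 1 TPM. Their highest single value was 0.80 TPM in overexpression libraries (Mb, mouse 3) and 1.85 TPM in wild-type libraries (Casq2, mouse 1). All of these markers, Myf5 to Casq2, were named after their values were seen. The part of striated muscle cells in the values of Myom1, Tnnt2 and Ldb3 was not tested.

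The rest of the sarcomere was followed through 63 further sarcomere genes, of which 62 were in the table. Most were hardly detected: 21 averaged 1 TPM or more, and 11 were under 0.1 TPM in all 6 libraries, 3 of these listed at 0 throughout. The 21 had a median log2 difference of 0.11, with 14 higher and 7 lower (11 and 10 after quantile normalisation), against a median of -0.0090 over all genes fitted. None passed limma's adjusted threshold. At an unadjusted p under 0.05 there were 6 higher and 2 lower, where 10.6% and 8.94% of all genes were. Overexpression lay wholly above wild type for 6 and wholly below for 1, where 14.3% and 12.9% of all genes did.

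Speg, a muscle kinase gene whose isoforms cannot be separated here, was at 39.0, 58.6 and 23.5 TPM in overexpression libraries. It was at 20.2, 17.3 and 16.6 TPM in wild-type libraries. The groups did not overlap (log2 difference 1.03 ± 0.29 SE, limma adjusted p = 0.148). Acta1, the skeletal muscle actin gene, named after its values were seen, was at 4.59, 11.8 and 3.72 TPM in overexpression libraries, against 2.45, 2.49 and 3.21 TPM in wild-type libraries, also without overlap (log2 difference 0.91 ± 0.35 SE, limma adjusted p = 0.225). Overexpression mouse 2 was highest for both genes, as it was for Tnnt2 and Lmod1. Tmod1, a cap of the actin filament's pointed end, had 5.82 ± 0.29 TPM in overexpression and 4.28 ± 0.22 TPM in wild-type cultures (SD, n = 3 each), with a log2 difference of 0.37 ± 0.11 (SE; limma adjusted p = 0.154). The most abundant of the list were Tmod3, a widely expressed relative of Tmod1, at 202 ± 20.7 and 223 ± 12.1 TPM, and Ankrd1, a stretch-responsive repeat protein gene, at 203 ± 32.2 and 204 ± 6.95 TPM. Unc45a, a myosin chaperone gene found in most cells, had 30.5 ± 1.63 and 31.2 ± 1.18 TPM. These 3 overlapped between genotypes. Without overexpression mouse 3, limma called Speg and Obsl1 of the 21, and 6.3% of all genes.

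By structure, thick filament genes summed to 12.4 to 16.4 TPM in overexpression and 11.9 to 15.1 TPM in wild-type libraries over 17 genes, with the myosin light chain gene Myl4 the most abundant. None of the 7 striated muscle myosin heavy chain genes listed reached 1 TPM in any library. The M-band genes Myom2, Myom3 and Obsl1 summed to 8.30 to 15.9 TPM in overexpression and 5.28 to 7.66 TPM in wild type, of which all but 0.60 to 1.17 and 0.94 to 1.08 TPM was Obsl1. Z-disc genes other than Ldb3 summed to 8.12 to 8.98 and 6.87 to 7.59 TPM over 10 genes. Thin filament genes other than Tnnt2, mostly Tmod3, summed to 213 to 263 TPM in overexpression and 248 to 269 TPM in wild-type libraries over 18 genes. With Tmod3 left out, they summed to 34.8 to 48.9 TPM in overexpression and 32.3 to 38.9 TPM in wild-type libraries. By mean level Myom1 led these M-band genes in both genotypes. Among the Z-disc genes plotted, which leave out Synpo2, Ldb3 had the highest mean in both, but in wild-type libraries it overlapped Actn2, at 2.33 to 3.42 TPM.

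**Figure D3:**
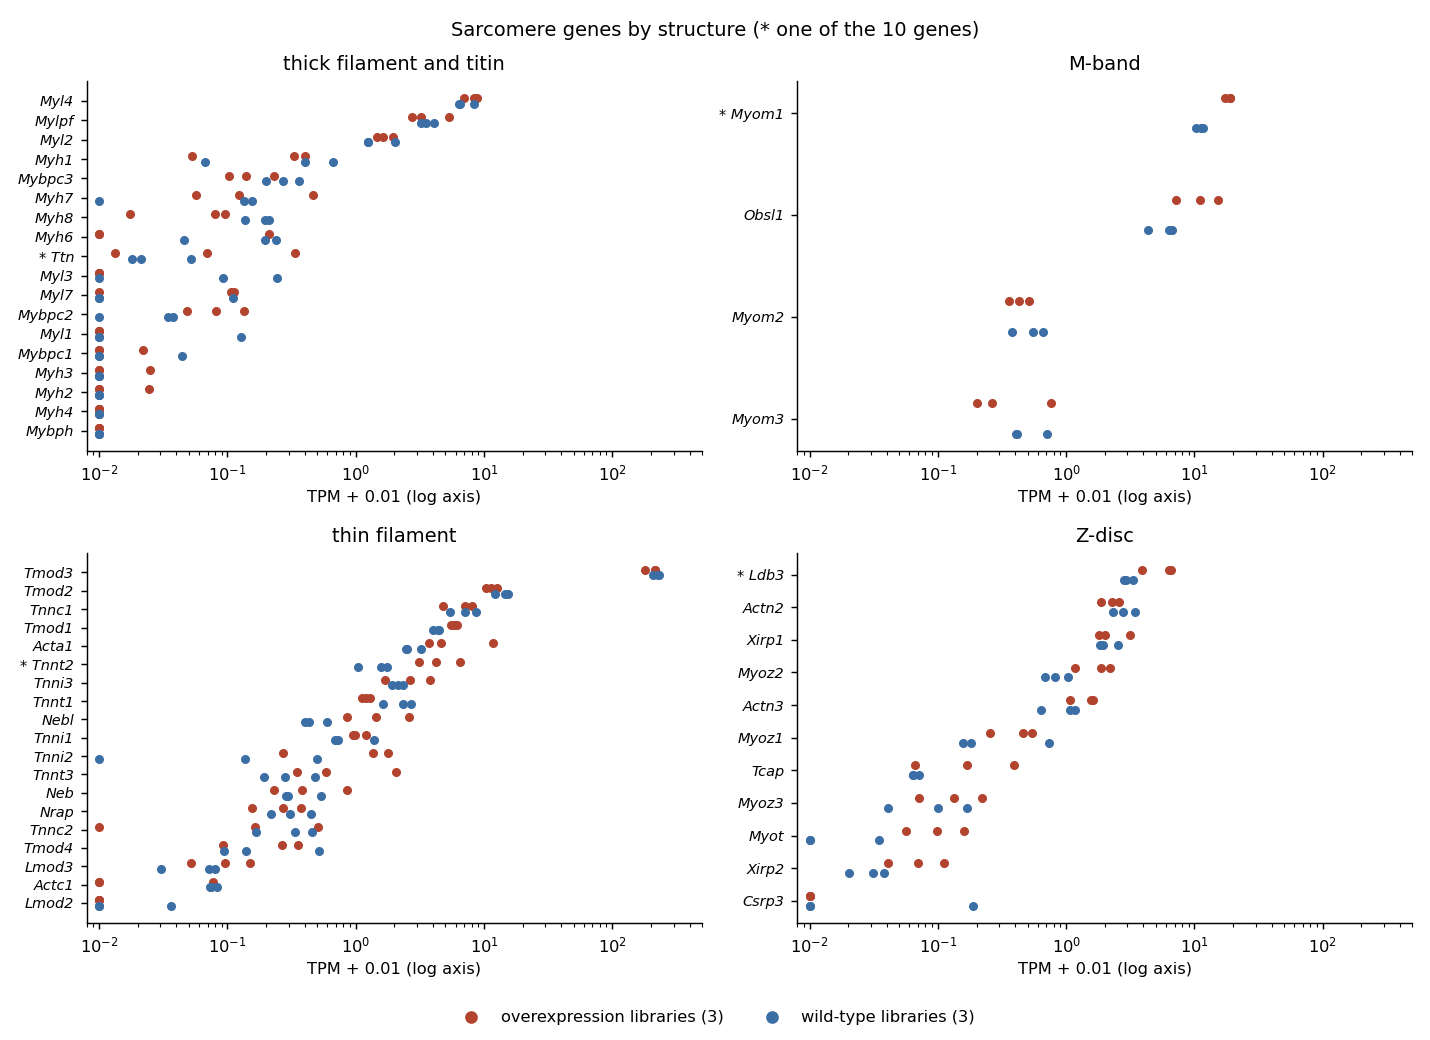
RNA level of sarcomere genes in 4 structures (TPM plus 0.01, log axis), with 3 overexpression points above 3 wild-type points for each gene and the followed genes marked by an asterisk. Myom1 has the highest mean of the M-band genes plotted and Ttn stands among the barely detected thick filament genes.

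The intermediate filament family outside Vim, Des and Synm lay on both sides of wild type. Of 34 genes, among them keratins, lamins, neurofilaments and the plakin linkers, 16 averaged 1 TPM or more. Their median log2 difference was -0.089, with 5 higher and 11 lower (3 and 13 after quantile normalisation). Overexpression lay wholly above wild type for 2 and wholly below for 3, and none passed limma's adjusted threshold, against 2 higher and 2 lower at an unadjusted p under 0.05. Over all genes 27.2% separated and 19.5% reached that p, shares close to those of this family. Krt19, a keratin of simple epithelia, was at 34.5, 41.8 and 29.0 TPM in overexpression libraries, against 20.0, 21.6 and 19.4 TPM in wild-type libraries. Its groups lay well apart, with a log2 difference of 0.74 ± 0.13 (SE; limma adjusted p = 0.128).

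Krt18, a type I keratin of simple epithelia, lay the other way. It was at 107, 78.1 and 142 TPM in overexpression libraries, against 141, 159 and 159 TPM in wild-type libraries, with overlap (log2 difference -0.52 ± 0.19 SE, limma adjusted p = 0.212). Krt80 was at 12 ± 2.98 TPM in overexpression and 18.4 ± 2.01 TPM in wild-type cultures (SD, n = 3 each), without overlap (log2 difference -0.59 ± 0.18 SE, limma adjusted p = 0.16). Lmna, which encodes the nuclear lamins A and C, had 332 ± 50.0 and 274 ± 9.13 TPM. The plakins Macf1 and Dst, which join filament systems, had 249 ± 25.6 and 276 ± 9.06 TPM and 142 ± 2.23 and 149 ± 4.37 TPM. Without overexpression mouse 3, limma called 3 of the 16, namely Krt19 higher and Krt18 and the nestin gene Nes, named after its values were seen, lower, and 6.3% of all genes.

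Dense body and Z-disc linker genes were mostly abundant, and 43 of 47 were fitted. Their median log2 difference was 0.11, with 28 higher and 15 lower. Overexpression libraries lay wholly above wild type for 14 and wholly below for 8, where 14.3% and 12.9% of all genes did. None passed limma's adjusted threshold, against 9 higher and 4 lower at an unadjusted p under 0.05, where 10.6% and 8.94% of all genes were. Fhl1, a LIM domain protein gene of muscle, was at 385, 340 and 357 TPM in overexpression libraries, against 267, 289 and 249.7 TPM in wild-type libraries (log2 difference 0.42 ± 0.077 SE, limma adjusted p = 0.128). Hspb7, a small heat shock protein gene of muscle, had 14.9 ± 1.74 and 9.73 ± 0.47 TPM (log2 difference 0.57 ± 0.11 SE, limma adjusted p = 0.128). Both lay wholly higher in overexpression.

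Zyx, the gene of the focal adhesion protein zyxin, stood on the lower side, at 654, 670 and 745 TPM in overexpression libraries, against 815, 854 and 830 TPM in wild-type libraries (log2 difference -0.27 ± 0.067 SE, limma adjusted p = 0.131). Its groups did not overlap. Cald1, caldesmon, had 1726 ± 74.0 and 1554 ± 20.6 TPM, Actn1, an alpha-actinin of non-muscle cells and smooth muscle, 726 ± 5.53 and 690 ± 34.3 TPM, and the related Actn4 551 ± 30.8 and 594 ± 4.02 TPM (SD, n = 3 each in overexpression and wild type). Linker genes lay on both sides. Without overexpression mouse 3, limma called 9 of the 43, with 7 higher and 2 lower, where 3.99% and 2.31% of all genes were.

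**Figure D4:**
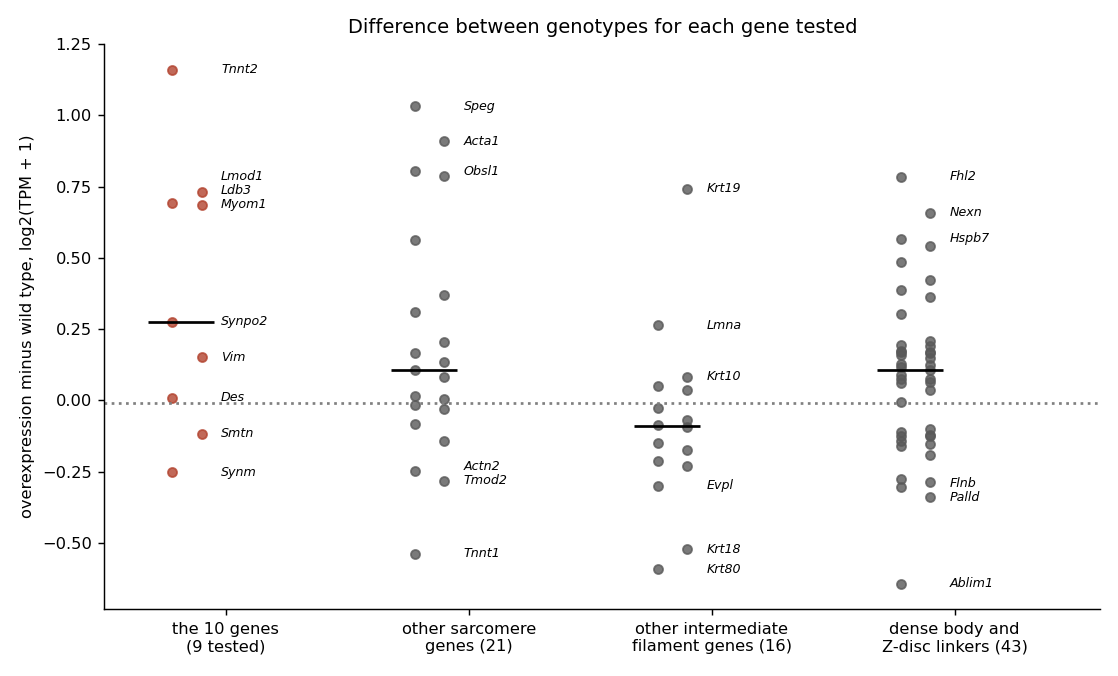
Log2 difference (overexpression minus wild type, log2(TPM + 1)) of every fitted gene in the followed set and 3 comparison lists; black lines are list medians and the dotted line is the median of all genes. Points of each comparison list lie on both sides of the dotted line, with Speg, Krt19 and Fhl2 highest in theirs.

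Genes with profiles over the 6 libraries close to those of 3 of the genes were ranked by the mean absolute difference of log2(TPM + 1) after centring on the wild-type mean. For Myom1 they included Gadd45g and Map3k5, at 0.089 and 0.091. For Tnnt2 they included Lhx9 and Mmp19, at 0.11 each. Those of Des were Vps8, Stag3 and Zfp85, at 0.087, 0.097 and 0.097. None of these 7 genes belongs to the lists above.

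Footprints of the factors named at the outset were available as 1 pooled value per genotype, with no replicate check. In the authors' deposited table the mean MEF2A footprint score was 0.186 in overexpression and 0.144 in wild type, with 1710 and 1139 of 27566 sites called bound. The authors' deposited table placed the MEF2A, MEF2D, MEF2B and MEF2C motifs at ranks 15, 21, 24 and 25 of 879 motifs by change towards overexpression. For SRF, which binds the CArG box, the authors' deposited table gave 0.211 in overexpression and 0.196 in wild type, rank 374, with 818 and 646 of 8649 sites called bound. The mean score was the higher one in overexpression for 56.4% of all motifs in the authors' deposited table. For the TEAD factors, added after their values were seen, the authors' deposited table gave mean scores of 0.236 to 0.248 in overexpression and 0.200 to 0.211 in wild type over the TEAD1 to TEAD4 motifs, at ranks 124 to 172. That table holds no site positions, so it says nothing of the start regions shown above.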

How the data were processed

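RNA was measured in 6 libraries, 3 per genotype, and ATAC-seq in 2 mice per genotype. Gene levels came as TPM (transcript abundance scaled for length and library total) in 1 deposited table, which per the labels is kallisto output. The submitters' processing notes name mm10. No source used here gives the counting tool's version, the annotation or the read number, so the depth behind each value is unknown and isoforms cannot be separated. For ATAC-seq the authors deposited mean footprint scores, counts of bound sites, a change score and p-values per motif, with the mice of each genotype merged, per the file headers; the deposited p-value was not used.

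Genes averaging 1 TPM or more were fitted together by limma 3.58.1 (R 4.3.3) after the transform log2(TPM + 1) (eBayes with trend, two-sided, Benjamini-Hochberg, threshold 0.05). Groups came from the genotype label. Log2 differences are overexpression minus wild type on that scale, which understates differences of low genes. The 10 genes and the comparison lists were chosen with earlier results of these data known, and the 10 genes partly on this very comparison, so no p-value is given for them. Other genes named are, per list, the 4 most abundant and the 3 with the smallest p, and per marker list the 2 most abundant and the defining markers at 0 in all libraries; others are said to be named after their values were seen. Gene positions and promoter sequences are RefSeq's, on GRCm38.p6, matched by symbol for 10 of 10 genes. The code was checked on simulated data. Alternatives were 2 pseudocounts, 2 filters, 2 scalings, a replicate block, quality weights, no trend, and leaving out each library. Some genes that this rule names are not reported here.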

Additional observations from a re-analysis of the deposited data

How the results depend on the processing

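The calls depended most on overexpression mouse 3 and on the weighting of libraries. Leaving out 1 library at a time gave 1 to 828 genes called in all, against 2 with all 6 libraries, and 0 to 2 of the other sarcomere genes, 0 to 3 of the other intermediate filament genes and 0 to 9 of the dense body and Z-disc linkers, against 0 of each. The highest counts came without overexpression mouse 3. Quality weights gave 2728 genes in all and 7, 4 and 21 in the 3 lists; a mean of at least 5 TPM gave 1 gene in all. The replicate block on the mouse number also gave 1, and 0 in each list. Same-numbered libraries had correlations of deviations of -0.022, 0.058 and 0.018, against -0.057 to 0.035 between libraries of different number. Not every library correlated best with its own number. This check showed no pairing of the mice by number, but with 3 libraries per genotype it cannot exclude one. The 3 list medians kept their sign in 15 of 15 alternatives. That of the sarcomere list was 0.012 with no filter on low values, 0.027 after quantile normalisation and 0.042 to 0.18 with a library left out. That of the intermediate filament list, -0.089 with all libraries, was -0.039 with no filter and -0.14 without overexpression mouse 3. That of the linkers was 0.075 with no filter, 0.089 with a mean of at least 5 TPM, 0.085 after quantile normalisation, 0.087 with quality weights and 0.069 to 0.12 with a library left out. Myom1, Vim, Synpo2, Lmod1 and Smtn kept their sign in 15 of 15 alternatives and Tnnt2 and Ldb3 in 14 of 14. Des kept it in 11 of 14 (-0.22 to 0.43) and Synm in 14 of 15 (-0.41 to 0.018). The cause of these shifts was not tested. The depth behind the TPM is unknown, so no counting error can be given for Ttn, Des or Tnnt2.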
